A study of Mus musculus with 6 samples.

Results

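The 48 genes described here are 26 genes that act in S phase, when DNA is copied, and 22 genes that act in mitosis, when the copies are separated. They were chosen by name, as rows of the deposited gene table whose Ensembl identifier carries one of the listed symbols in GENCODE M21, and all 48 were found among the 24191 genes of the table. The values are bulk polyA RNA levels in J1 mouse embryonic stem cells, a line derived from the inner cell mass of a mouse embryo. There were 3 libraries of Mettl5 KO cells, in which both copies of Mettl5 are disrupted (Mettl5 -/-), and 3 of wild type (WT) cells of the same line. Mettl5 encodes the enzyme that places N6-methyladenosine on the RNA of the small ribosomal subunit, and the series asked what its loss does to pluripotency and developmental programmes. Cells of both groups had grown for 7 days with serum and with LIF, a cytokine that blocks differentiation. The sources used here do not give the altered part of Mettl5 or the number of KO clones. The labels do not say that the replicates were separate cultures, so the p-values below measure the spread between these libraries, which may be technical.

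A cell licenses its replication origins by loading the MCM2-7 helicase onto them, through the origin recognition complex, CDC6 and CDT1. In S phase the helicase is switched on by CDC45 and the GINS complex, and polymerases held by the PCNA clamp copy the DNA. Mitosis is driven by cyclin B with CDK1 and by the Aurora and Polo kinases, and a checkpoint holds back the activator CDC20 until every chromosome is attached to the spindle. Genes of the first group are transcribed early in the cycle under E2F factors, and those of the second late, under the MuvB complex with B-MYB and FOXM1, often through a promoter element called the CHR. Mouse embryonic stem cells divide fast, with a short first gap phase, and hold many of these transcripts at high levels.

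Promoter windows show one way in which the 2 sets differ in sequence. RefSeq windows on GRCm38.p6, from 250 bases before to 50 bases after the annotated start, were matched by symbol for 37 of the 48 genes, 21 of S phase and 16 of mitosis. Mcm4, Gmnn, Gins1, Gins2, Pole, Ccna2, Cdc25c, Aurkb, Kif20a, Tpx2 and Foxm1 had no entry. An E2F motif (TTTCCCGC, TTTGGCGC, TTTCGCGC or TTTGCCGC, on either strand) was present in the windows of 9 of the 21 S phase genes (42.9%) and of 1 of the 16 mitosis genes, Cdk1. Of all 27025 genes with a window (32851 windows), 2.6% held it. The CHR motif (TTTGAA, on either strand) was present in 2 of the 21 S phase genes, Mcm2 and Cdc45, and in 11 of the 16 mitosis genes (68.8%), against 20.2% of all genes with a window. CCAAT, on either strand, was present in 15 of the 21 and 14 of the 16 genes, against 41.1% of all genes with a window. These 5 letters share no full match with the E2F or CHR letters, although 2 E2F matches can overlap each other. A match describes the letters and does not show that a factor binds there. The 4 windows below belong to the S phase and mitosis genes with the largest called changes that hold the motif of their set. Capitals mark the E2F motif in the first pair, and the CHR and CCAAT in the second pair. The sequences run 5′ to 3′ on the strand of the gene, and positions count from 0 at the annotated start base.
Mcm5, chr8:75109259-75109558, plus strand: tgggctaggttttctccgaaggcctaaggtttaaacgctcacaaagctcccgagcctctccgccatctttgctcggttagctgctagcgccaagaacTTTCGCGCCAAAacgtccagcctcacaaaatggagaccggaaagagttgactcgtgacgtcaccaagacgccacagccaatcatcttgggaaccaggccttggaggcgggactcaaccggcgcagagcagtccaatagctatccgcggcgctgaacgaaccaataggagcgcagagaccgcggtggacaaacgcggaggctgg
Rfc3, chr5:151651159-151651458, minus strand: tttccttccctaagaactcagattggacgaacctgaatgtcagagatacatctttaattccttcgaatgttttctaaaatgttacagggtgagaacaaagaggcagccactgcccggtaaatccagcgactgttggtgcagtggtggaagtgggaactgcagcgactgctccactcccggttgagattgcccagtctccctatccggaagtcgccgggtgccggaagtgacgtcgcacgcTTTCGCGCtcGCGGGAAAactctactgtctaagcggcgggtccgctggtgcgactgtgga
Top2a, chr11:99024140-99024439, minus strand: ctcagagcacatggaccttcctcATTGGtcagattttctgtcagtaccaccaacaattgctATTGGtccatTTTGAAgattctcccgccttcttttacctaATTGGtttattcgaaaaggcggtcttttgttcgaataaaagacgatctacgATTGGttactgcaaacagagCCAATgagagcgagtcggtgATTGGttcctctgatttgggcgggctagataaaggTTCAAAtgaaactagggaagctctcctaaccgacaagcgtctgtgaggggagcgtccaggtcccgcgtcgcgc
Ccnb2, chr9:70421505-70421804, minus strand: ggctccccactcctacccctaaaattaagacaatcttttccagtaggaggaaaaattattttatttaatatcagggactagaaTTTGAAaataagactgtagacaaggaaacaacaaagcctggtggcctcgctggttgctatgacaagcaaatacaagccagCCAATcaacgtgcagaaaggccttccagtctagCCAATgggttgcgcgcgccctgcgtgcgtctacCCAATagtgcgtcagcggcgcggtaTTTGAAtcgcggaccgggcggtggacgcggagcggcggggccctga
The Mcm5 window held 2 overlapping E2F matches that begin at -153 and -149. The Rfc3 window held 2 that begin at -10 and 0, on either side of the start. In Top2a the CHR matches began at -179 and -23, with 6 CCAAT matches. In Ccnb2 they began at -167 and 4, with 3 CCAAT matches.

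Mettl5 itself was listed at 3.65, 3.58 and 3.32 on the TPM scale in KO libraries and at 50.3, 48.6 and 48.7 in WT libraries, which differ in the direction the labels give. It changed by -3.73 on the log2 scale (SE 0.0522, limma adjusted p 5.4e-11). Estimated depth was 40440000 to 59640000 fragments in KO libraries and 38540000 to 52750000 in WT libraries. All 8 embryonic stem cell markers were above 1 on the TPM scale, the lowest at a mean of 52.5 in KO and 39.97 in WT libraries. Their levels differed between the genotypes in both directions. As deposited, 3 rose (Lin28a, Sall4 and Dppa5a), 4 fell (Sox2, Utf1, Tdgf1 and Pou5f1) and Nanog was not called. These directions need a limma adjusted p under 0.05, at which 33.6% of all tested genes rose and 28.9% fell. Of 16 feeder fibroblast markers, 14 rose and 2 fell (Thy1 and Pdgfra). The summed level of the 16 was 184 to 186 in KO and 90.0 to 93.0 in WT libraries, with Fn1 the highest at 126 and 70.9. Of these 16, 11 reached a mean of 1 in KO and 4 in WT libraries. Col3a1, Postn, Lox, Dcn, Lum and Prrx1 were under 0.1 in WT libraries, and no marker was at 0. The part of these markers in the results below was not tested.

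Most replication and mitosis genes differed between the genotypes, and more of them fell than rose. Levels below are on the authors' TPM scale, and fold changes are KO over WT on log2(scaled reads + 1). A gene was called at a limma adjusted p under 0.05 (Benjamini-Hochberg over 24183 genes). Of the 48 genes, 15 rose, 27 fell and 6 were not called. Across all genes tested, 33.6% rose and 28.9% fell, 62.6% in all. Among the 9158 genes with at least the mean scaled reads of Cenpe, the lowest of the 48 on that scale, 80.8% were called, so a call by itself does not set these genes apart. The median absolute log2 fold change was 0.21 over the 48 genes, against 0.32 over those 9158 genes and 0.46 over all genes. At equal totals it was 0.30 over the 48 genes and 0.31 over the 9158. As deposited, Gins2, Mcm5 and Top2a were called with a change of at least 1.5-fold, which is 6.2% of the 48, and all of these fell. The same share was 35.5% of all tested genes and 25.5% of the 9158. At equal totals Cdt1, Mcm2 and Aurkb passed as well, all lower, which made 6 of the 48 (12.5%), against 37.0% of all tested genes and 25.6% of the 9158. In bulk RNA, fewer cells in a phase and less RNA per cell cannot be told apart.

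The 2 sets had similar medians. Of the 26 S phase genes, 10 rose, 15 fell and 1 was not called, with a median log2 fold change of -0.119. Of the 22 mitosis genes, 5 rose, 12 fell and 5 were not called, with a median of -0.125. Over all genes tested the median was 0.004. Over the 9158 genes with at least the scaled reads of Cenpe it was 0.105, with 4529 higher and 2868 lower. The scaled reads summed to 51500000 to 51830000 in KO and 46077000 to 46541000 in WT libraries. Setting the totals equal moved the median of all genes to -0.15 and that of the S phase and mitosis genes to -0.28 each. The 9158 genes then had a median of -0.051, with 3286 higher and 4058 lower. With equal totals 3 S phase genes rose and 16 fell, and 2 mitosis genes rose and 15 fell, against 26.1% higher and 37.8% lower of all genes. Directions below are therefore given with the call under that scaling wherever it differs. The same call was made as deposited, at equal totals, on the TPM column and with each chromosome centred for 29 of the 48 genes. These were 3 higher and 14 lower genes of S phase and 2 higher and 10 lower genes of mitosis. Over all tested genes, 25.5% were higher and 24.6% lower in all 4 fits, a share that was not taken among genes of similar level.

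Summed levels of both sets were lower in KO libraries. The 26 S phase genes summed to 2749, 2759 and 2741 on the TPM scale in KO libraries and to 2998, 2964 and 2995 in WT libraries. The 22 mitosis genes summed to 2462, 2484 and 2489.7 in KO libraries and to 2758, 2770 and 2761 in WT libraries. Both sums were lower in every KO library than in any WT library, although the TPM column itself summed to 1019930 to 1022470 in KO and 969840 to 978170 in WT libraries. High genes weigh most in such sums. Mean Mcm5 was 198 in KO and 311 in WT libraries, and mean Top2a 204 and 333. They lie on chromosomes 8 and 11, whose genes were lower as a group, as described below. On the TPM column 8 S phase and 5 mitosis genes were called higher. The sums were not split by chromosome and do not show a fall across either set. The balance between the sets did not separate the genotypes. The mean log2 level of S phase genes minus that of mitosis genes was 0.041, 0.014 and 0.027 in KO libraries and 0.028, -0.001 and 0.011 in WT libraries, so the groups overlapped.

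**Figure D1:**
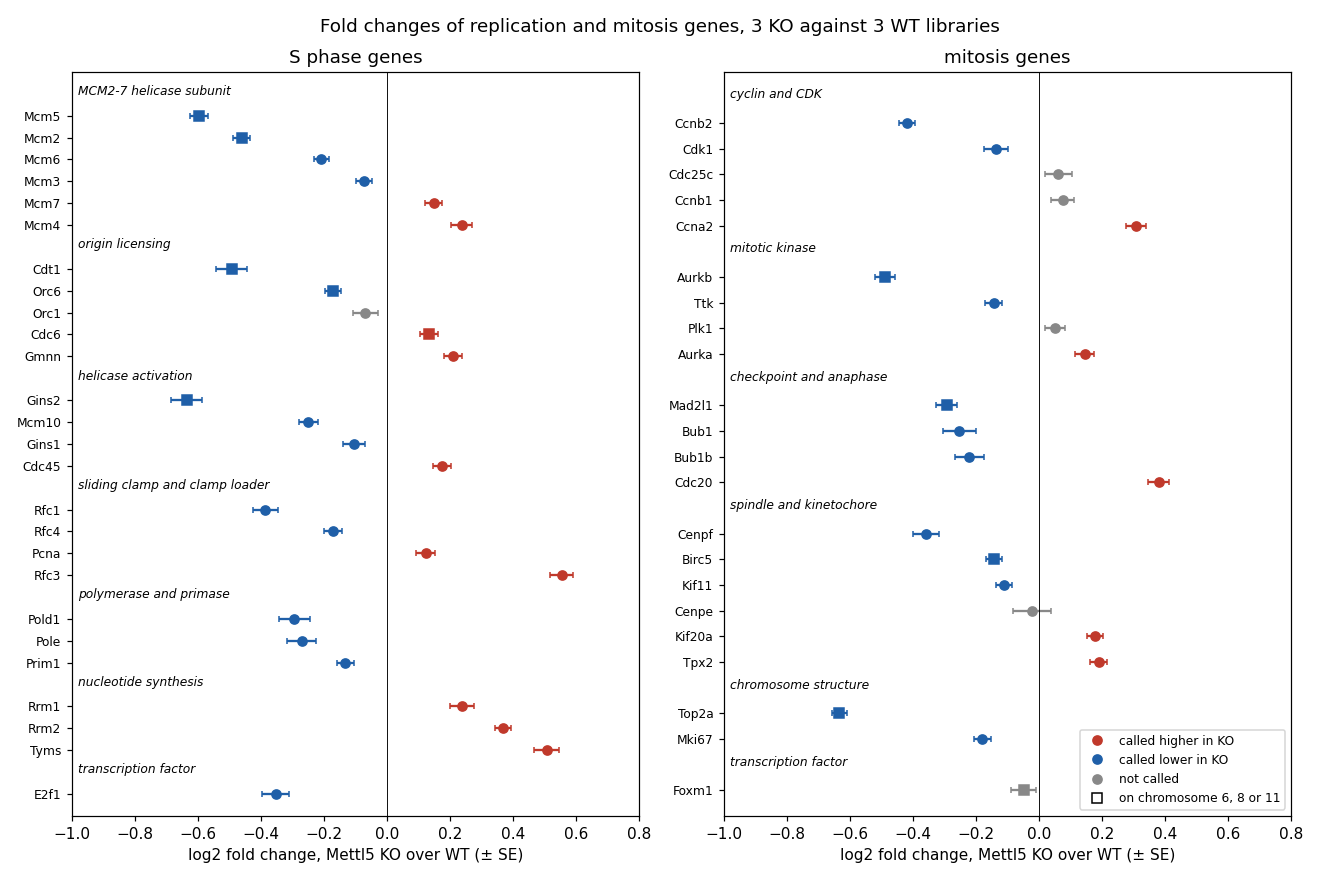
Log2 fold change of each of the 26 S phase genes (left) and 22 mitosis genes (right), Mettl5 KO over WT, with bars for the standard error of the limma fit and 3 libraries per genotype. Colours give the call as deposited, squares mark genes on chromosomes 6, 8 or 11, and genes are grouped by role; 10 S phase and 5 mitosis genes were called higher and 15 and 12 lower, and at equal totals 3 and 2 were called higher.

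The level of each gene was reproducible between replicates. The coefficient of variation had a median of 1.75% in KO and 2.66% in WT libraries over the 48 genes, with the highest at 6.37% for Cenpe in KO and 7.19% for Gins2 in WT. On the TPM scale the groups did not overlap for 43 of the 48 genes (89.6%), against 68.1% of all tested genes. This share was not taken over the 9158 genes with at least the scaled reads of Cenpe. More of those were called than of all genes (80.8% against 62.6%), so the 2 shares are not matched for level. Mean levels ran from 9.47 in KO and 12.5 in WT for E2f1 up to 466 for Pcna in KO and 471 for Cdk1 in WT. The plot of levels by library shows this as blocks of similar colour within a genotype for most genes.

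**Figure D2:**
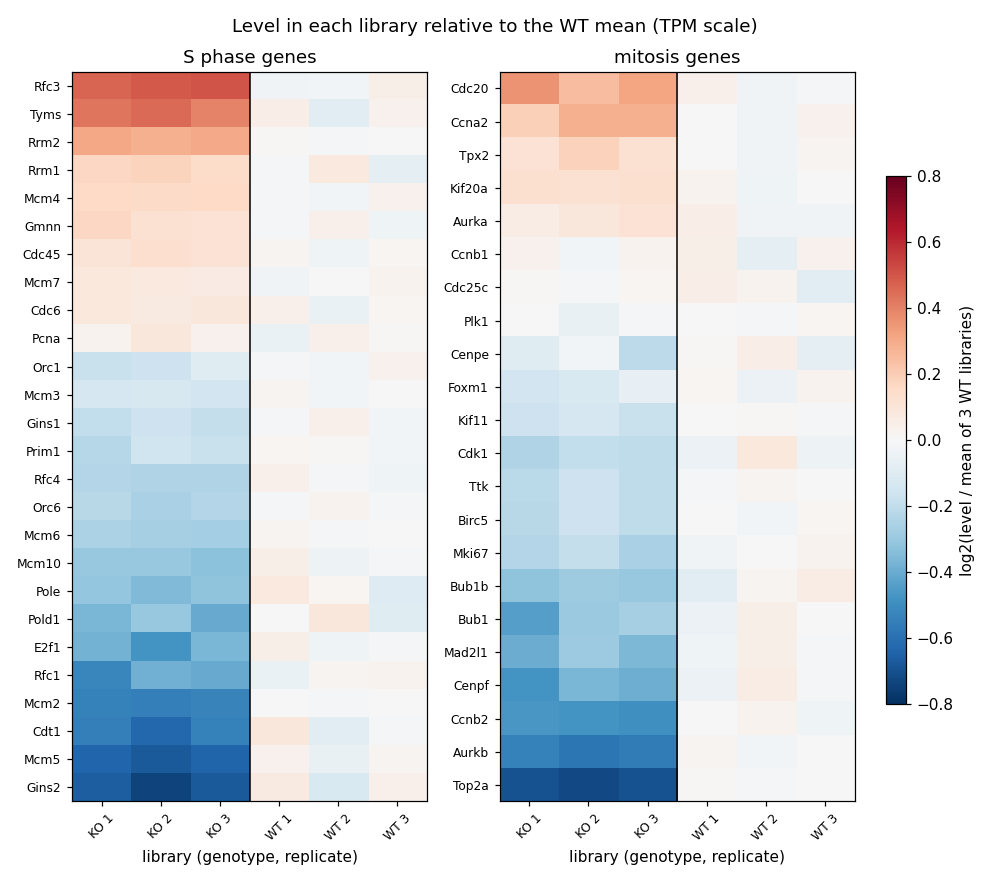
Level of each S phase gene (left) and mitosis gene (right) in each library on the TPM scale, as the log2 ratio to the mean of the 3 WT libraries; red is higher and blue is lower. The 3 KO columns resemble each other in most rows, from Rfc3 (58.8 to 60.3 in KO and 41.7 to 44.0 in WT) to Gins2 (75.2 to 79.6 in KO and 116 to 132 in WT). Cenpe varied most among KO libraries (18.3 to 20.8, and 20.1 to 22.0 in WT).

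Among the 6 genes of the MCM2-7 helicase, the ring that unwinds DNA ahead of the polymerases, 4 fell and 2 rose as deposited. Mcm5 (ENSMUSG00000005410, mm10 chromosome 8, 75109569 to 75128439), whose promoter is printed above, was at 200.3, 195 and 199 in KO libraries and 319, 298 and 315 in WT libraries. Each KO library lay far below each WT library. The log2 fold change of Mcm5 was -0.60 (SE 0.0294, limma adjusted p 1.41e-07). Mcm2, which binds histones at the fork as well, was at 121, 119.9 and 121 in KO libraries and 176, 174 and 176 in WT libraries. These groups were also well apart, with a log2 fold change of -0.46 (SE 0.0262, limma adjusted p 3.63e-07). Mcm6 averaged 119 ± 0.677 in KO and 143 ± 1.94 in WT libraries (SD, n = 3 each), a log2 fold change of -0.21. Mcm3, at 142 ± 1.25 in KO and 157 ± 2.43 in WT libraries, changed by -0.07 on the log2 scale (limma adjusted p 0.0295). The call did not hold when any 1 library other than WT replicate 2 was left out, with limma adjusted p of 0.0553 to 0.108. Mcm4 and Mcm7 rose as deposited, by 0.24 and 0.15 on the log2 scale, but neither was called at equal totals (0.08 and -0.01). Mcm7 shares 7.25% of its exon bases with Ap4m1 on the other strand. It also matches the pseudogene Gm5487 over 2157 bases at 97.7% identity. That pseudogene has no listed level, so the value of Mcm7 is uncertain.

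Because the 6 subunits sit in the ring in equal number, their transcripts can be set against each other inside a library, where the scaling of libraries cancels. The 6 levels summed to 954, 946 and 947 in KO libraries and to 1139.6, 1112 and 1144 in WT libraries on the TPM scale. Mcm5 made up 20.9% ± 0.215 of that sum in KO and 27.4% ± 0.577 in WT libraries (SD, n = 3 each). The share of Mcm2 was 12.7% ± 0.0794 in KO and 15.5% ± 0.146 in WT libraries. Mcm7 had 31.4% ± 0.111 in KO and 24.97% ± 0.527 in WT libraries, and Mcm4 had 7.45% ± 0.0473 in KO and 5.6% ± 0.0819 in WT libraries. So Mcm7, whose value is uncertain as given above, held the highest share in KO and Mcm5 in WT libraries. Mcm6 held 12.6% in both groups, and Mcm3 15% in KO and 13.9% in WT libraries. Such shares show unequal change among the 6 genes and not which of them stayed level. Mcm5 and Mcm2 lie on chromosomes 8 and 6, whose genes were lower as a group, as described below.

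Of the 5 origin licensing genes, 2 fell, 2 rose and 1 was not called as deposited. Cdt1 (ENSMUSG00000006585, chromosome 8, 122568015 to 122573554), which loads the helicase, was at 49.1, 46.5 and 49.4 in KO libraries and 76.5, 67.5 and 71.4 in WT libraries. Geminin (Gmnn), the protein that binds and blocks CDT1, was at 111, 108 and 108 in KO libraries and 98.7, 102 and 97.2 in WT libraries. The groups of both genes were apart, in opposite directions. The log2 fold change was -0.49 for Cdt1 (SE 0.0487, limma adjusted p 1.61e-05). For Gmnn it was 0.21 (SE 0.0294, limma adjusted p 0.000188) as deposited, and 0.05 without a call at equal totals. Orc6, the smallest origin recognition subunit, fell by 0.17 on the log2 scale (138 ± 1.55 in KO and 163 ± 2.58 in WT libraries) but was called higher once its chromosome was centred (0.19). Orc6 shares 6.93% of its exon bases with Vps35 on the other strand, which had a log2 fold change of -0.195. Orc1, the largest subunit, was at 47.2 ± 1.49 in KO and 52.3 ± 1.02 in WT libraries, a log2 fold change of -0.07 that was not called as deposited (limma adjusted p 0.163). It was called lower at equal totals (-0.23) and with its chromosome centred (-0.16). Cdc6, the other loading factor, rose by 0.13 as deposited (32.9 ± 0.27 in KO and 31.1 ± 1.04 in WT libraries) and was at -0.02 without a call at equal totals. Cdc6 matches the pseudogene Gm9430 over 1528 bases at 95.2% identity. No level is listed for Gm9430, so the value of Cdc6 is uncertain.

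Helicase activation genes gave 3 lower and 1 higher as deposited. Gins2 (ENSMUSG00000031821, chromosome 8, 120578633 to 120589304), a subunit of the GINS complex, was at 79.6, 75.2 and 79.0 in KO libraries and 132, 116 and 129.7 in WT libraries. This was the largest change of any S phase gene here, a log2 fold change of -0.64 (SE 0.0492, limma adjusted p 3.01e-06). Gins2 is uncertain, since 67.3% of its exon bases (2758 of 4097) lie opposite exons of Gse1, and the sources used here do not give the strand setting of the counting. Gse1 was at 12.3, 10.5 and 10.9 in KO libraries and 17.9, 16.2 and 16.9 in WT libraries, with a log2 fold change of -0.55, and is far below Gins2. Gins1 fell by only 0.10 on the log2 scale, and its call was lost in 4 of the 6 fits that left out a library (limma adjusted p up to 0.0705). Mcm10, a scaffold of the forming fork, fell by 0.25 (58.7 ± 0.548 in KO and 73.0 ± 2.19 in WT libraries). Cdc45, which completes the helicase, rose by 0.17 as deposited (39.3 ± 0.477 in KO and 36.2 ± 0.757 in WT libraries) and by 0.02, without a call, at equal totals.

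The clamp loader genes moved apart. Rfc3 (ENSMUSG00000033970, chromosome 5, 151642756 to 151651242), a small subunit of replication factor C, was at 58.8, 59.6 and 60.3 in KO libraries and 41.7, 41.9 and 44.0 in WT libraries. Its log2 fold change of 0.55 (SE 0.0353, limma adjusted p 8.03e-07) was the largest increase of the 48 genes. Rfc1, the large subunit of the same complex, fell by 0.39 (45.3 ± 2.36 in KO and 61.2 ± 1.88 in WT libraries). The small subunit Rfc4 fell by 0.17 (89.5 ± 0.294 in KO and 106 ± 2.9 in WT libraries). Its exons share 12.7% of their bases with Eif4a2 on the other strand, a gene listed at 434 to 440 in KO and 617 to 653 in WT libraries with a log2 fold change of -0.46, so the value of Rfc4 is uncertain. Pcna, the clamp itself, was at 459, 478 and 461 in KO libraries and 434, 462 and 453 in WT libraries. These levels overlapped, while in scaled reads they did not, with a log2 fold change of 0.12 (SE 0.0315, limma adjusted p 0.00775). At equal totals it was -0.03 and not called. Pcna shares 781 bases at 99.2% identity with the pseudogene Pcna-ps2, which was listed at 81.7, 70.0 and 73.4 in KO and 84.4, 82.1 and 79.0 in WT libraries, so the split between the 2 is uncertain. Added together they were at 540.4, 548 and 535 in KO libraries and 519, 544 and 532 in WT libraries.

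All 3 polymerase and primase genes fell, and all 3 nucleotide synthesis genes rose as deposited. Pold1, the catalytic subunit of the lagging-strand polymerase, was at 35.4 ± 1.23 in KO and 45.4 ± 3.01 in WT libraries, a log2 fold change of -0.29. Pole, that of the leading-strand polymerase, was at 24.6 ± 0.396 in KO and 30.9 ± 1.98 in WT libraries, a change of -0.27. Prim1, the primase that starts each fragment, changed by -0.13. On the side of nucleotide supply, Tyms (ENSMUSG00000025747, chromosome 5, 30058202 to 30073617), thymidylate synthase, was at 196, 199 and 192 in KO libraries and 151, 137 and 149 in WT libraries. Every KO library was well above every WT library, with a log2 fold change of 0.51 (SE 0.0404, limma adjusted p 3.79e-06). Stretches of Tyms transcripts match several other genes. Of those listed, Wdr59 and Reep3 are the highest, at means of 10.4 and 8.81 on the TPM scale. The pseudogene Tyms-ps, which matches over 677 bases at 95.6% identity, has no listed level. Rrm2, the subunit that limits ribonucleotide reductase in S phase, rose by 0.37 (116 ± 0.9 in KO and 94.5 ± 0.663 in WT libraries). Its partner Rrm1 rose by 0.24 as deposited and lost the call at equal totals (0.08).

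E2f1, an activator of many genes of this set, was the lowest of the 48. It was at 9.66, 9.0 and 9.74 in KO libraries and 12.9, 12.2 and 12.4 in WT libraries. The groups did not overlap, for a log2 fold change of -0.35 (SE 0.0419, limma adjusted p 5.69e-05). Set beside the promoters, the 9 S phase genes with an E2F motif had 3 higher, 5 lower and 1 not called, with a median log2 fold change of -0.07. The 12 without it had 5 higher and 7 lower, and their median was -0.15. Both directions were present with and without the motif, as the printed Mcm5 (lower) and Rfc3 (higher) windows show.

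Among the mitosis genes, the cyclins diverged. Ccnb2 (ENSMUSG00000032218, chromosome 9, 70407692 to 70421547), a B-type cyclin, was at 91.7, 91.1 and 90.2 in KO libraries and 127, 129 and 124 in WT libraries. Ccnb1, the B-type cyclin that is essential for division, was at 334, 321 and 332 in KO libraries and 336, 308 and 333 in WT libraries. Ccnb2 was lower in every KO library, and the Ccnb1 groups overlapped. The log2 fold change was -0.42 for Ccnb2 (SE 0.0258, limma adjusted p 6.27e-07). For Ccnb1 it was 0.07 (SE 0.0361, limma adjusted p 0.101), and -0.08 at equal totals, with no call in either fit. Ccnb1 has 5 pseudogenes with close matches, of which Gm12856 is listed, at a mean of 0.071. Cyclin A2 (Ccna2), which acts in S phase and early mitosis, rose by 0.31 (156 ± 5.92 in KO and 131 ± 2.84 in WT libraries). It shares 12.5% of its exon bases with Exosc9 on the other strand, which had a log2 fold change of 0.34. Cdk1, the kinase that these cyclins switch on, was at 399, 410.4 and 408 in KO libraries and 455, 499.8 and 458 in WT libraries. It fell by 0.14 (SE 0.0369, limma adjusted p 0.00962), and the groups did not overlap. Cdc25c, the phosphatase that removes a brake from CDK1, was at 17.0 ± 0.163 in KO and 16.9 ± 0.847 in WT libraries and was not called (log2 fold change 0.06, and -0.10 at equal totals).

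The mitotic kinases also moved in both directions. Aurkb (ENSMUSG00000020897, chromosome 11, 69045647 to 69051664), the kinase of the chromosomal passenger complex, was at 41.8, 40.7 and 41.3 in KO libraries and 61.8, 59.9 and 61.0 in WT libraries. The groups were well apart, with a log2 fold change of -0.49 (SE 0.0322, limma adjusted p 1.02e-06). Aurka, its relative at the spindle poles, rose by 0.14 as deposited (89.6 ± 1.89 in KO and 84.2 ± 2.72 in WT libraries) and was at -0.01 without a call at equal totals. Plk1, the Polo kinase, was at 74.4, 71.4 and 73.6 in KO libraries and 74.0, 73.8 and 75.1 in WT libraries. These levels overlapped, and the log2 fold change of 0.05 was not called (SE 0.0313, limma adjusted p 0.187). At equal totals Plk1 was called lower, at -0.11. Ttk, the kinase at the head of the spindle checkpoint, fell by 0.14 (40.3 ± 0.713 in KO and 46.2 ± 0.593 in WT libraries).

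Of the 4 checkpoint and anaphase genes among the 48, Mad2l1, Bub1 and Bub1b fell and Cdc20 rose. Mad2l1, which binds and holds back CDC20, was at 129.5 ± 4.86 in KO and 165 ± 4.58 in WT libraries, a log2 fold change of -0.29. Bub1 and Bub1b, which recruit and form the checkpoint complex, fell by 0.25 and 0.22. Cdc20 (ENSMUSG00000006398, chromosome 4, 118432901 to 118437352), the activator of the anaphase-promoting complex that this checkpoint inhibits, was at 232, 215 and 226 in KO libraries and 186, 178 and 179.5 in WT libraries. It was higher in every KO library, with a log2 fold change of 0.38 (SE 0.0337, limma adjusted p 7.91e-06). Cdc20 remained higher at equal totals (0.22) and with each chromosome centred (0.29). Mad2l1, which lies on chromosome 6, was at -0.01 without a call after that centring. Cdc20 matches the pseudogene Gm7856 over 455 bases and Mad2l1 matches Gm42430 over 454, and neither pseudogene has a listed level. Other genes of the checkpoint did not share one direction. Bub3, a partner of Bub1 and Bub1b, rose by 0.49 (134 ± 5.08 in KO and 98.6 ± 1.88 in WT libraries, limma adjusted p 1.11e-06) and was called higher at equal totals and with chromosomes centred. Mad1l1, the partner of Mad2l1, was not called (17.96 ± 0.347 in KO and 18.3 ± 1.47 in WT libraries). Bub3 and Mad1l1 come from the list of other mitosis genes and were named after their values were seen.

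Spindle and kinetochore genes gave 3 lower, 2 higher and 1 not called as deposited. Cenpf (ENSMUSG00000026605, chromosome 1, 189640606 to 189688086), a protein of the outer kinetochore, was at 19.4, 21.0 and 20.6 in KO libraries and 26.3, 28.2 and 26.8 in WT libraries. The groups were apart, with a log2 fold change of -0.36 (SE 0.0409, limma adjusted p 4.41e-05). Cenpe, the kinetochore motor, was at 19.6 ± 1.25 in KO and 21.1 ± 0.928 in WT libraries and was not called as deposited (log2 fold change -0.02, limma adjusted p 0.754). It was called lower at equal totals (-0.18) and with its chromosome centred (-0.20). Birc5 (survivin, a partner of Aurora B) fell by 0.14 but was called higher, at 0.25, with its chromosome centred. Kif11, the motor that pushes the spindle poles apart, fell by 0.11. Tpx2, which activates Aurora A, rose by 0.19 and Kif20a, a motor of the central spindle, by 0.18 as deposited, and neither was called at equal totals; Kif20a was at -0.07 with chromosomes centred. Kif20a shares 29.3% of its exon bases with Cdc23 on the other strand, which had a log2 fold change of 0.20.

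Top2a (ENSMUSG00000020914, chromosome 11, 98992943 to 99024189), the topoisomerase that untangles sister chromatids, showed the largest change among the mitosis genes. It was at 205, 202 and 205 in KO libraries and 335, 331 and 332 in WT libraries. Its 3 replicates varied little next to the gap between the groups, for a log2 fold change of -0.63 (SE 0.023, limma adjusted p 1.86e-08). Mki67, the coat protein of mitotic chromosomes known as Ki-67, was at 34.2, 35.3 and 33.7 in KO libraries and 39.5, 40.3 and 41.0 in WT libraries. All KO values were below all WT values, with a smaller log2 fold change of -0.18 (SE 0.0271, limma adjusted p 0.000295). Foxm1, a transcription factor of mitosis genes, was at 25.9, 26.5 and 27.5 in KO libraries and 29.2, 27.9 and 29.4 in WT libraries. Those levels did not overlap, but in scaled reads they did, and the log2 fold change of -0.05 was not called (SE 0.0403, limma adjusted p 0.313). At equal totals Foxm1 was called lower (-0.21), and with its chromosome centred it was called higher (0.23). Of the 11 mitosis genes with a CHR in the promoter window, 2 rose, 8 fell and 1 was not called, with a median of -0.14. Of the 5 without it, 3 fell and 2 were not called, also with a median of -0.14. Top2a and Ccnb2, whose windows are printed above, held CHR and CCAAT together, as did 11 of the 16 mitosis windows and 6.95% of all windows.

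Pairs of functionally linked genes were compared as ratios within a library, which do not depend on how libraries are scaled. There were 8 such ratios, and the exact two-sided permutation test cannot go below 0.1 with 3 libraries against 3. The ratio of Cdt1 to Gmnn was 0.441, 0.429 and 0.458 in KO libraries and 0.775, 0.660 and 0.734 in WT libraries. The KO mean was 0.612 times the WT mean. Cdc20 over Mad2l1 was 1.86, 1.59 and 1.75 in KO libraries and 1.15, 1.04 and 1.10 in WT libraries, a KO mean 1.58 times the WT mean. Activator and inhibitor thus differed in opposite ways in the 2 pairs, lower against its inhibitor for Cdt1 and higher for Cdc20. Aurka over Aurkb was 2.10, 2.21 and 2.22 in KO libraries and 1.41, 1.38 and 1.36 in WT libraries. Ccnb1 over Ccnb2 was 3.64, 3.53 and 3.68 in KO libraries and 2.65, 2.38 and 2.69 in WT libraries. Both paralogue pairs had higher ratios in every KO library. Rrm2 over Rrm1 (1.27 ± 0.0216 in KO and 1.16 ± 0.0642 in WT), Mcm10 over Mcm2 (0.487 ± 0.0069 in KO and 0.416 ± 0.0107 in WT) and Cenpe over Cenpf (0.965 ± 0.0692 in KO and 0.780 ± 0.0305 in WT) did not overlap either (SD, n = 3 each; exact p 0.1 each). In all 7 the exact p was 0.1, the smallest possible, and 0.114 after Benjamini-Hochberg adjustment over the 8. Bub1 over Bub1b was the exception, at 0.661, 0.711 and 0.734 in KO libraries and 0.737, 0.729 and 0.688 in WT libraries. Its groups overlapped (exact permutation p 0.6). A ratio still carries any difference between chromosomes, and Cdt1, Mad2l1, Aurkb and Mcm2 lie on chromosomes 8, 6, 11 and 6. From fold changes centred per chromosome, KO over WT was 0.801 for Cdt1 over Gmnn, 1.23 for Cdc20 over Mad2l1 and 1.11 for Aurka over Aurkb, each nearer to 1. Mcm10 over Mcm2 turned to 0.893.

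**Figure D3:**
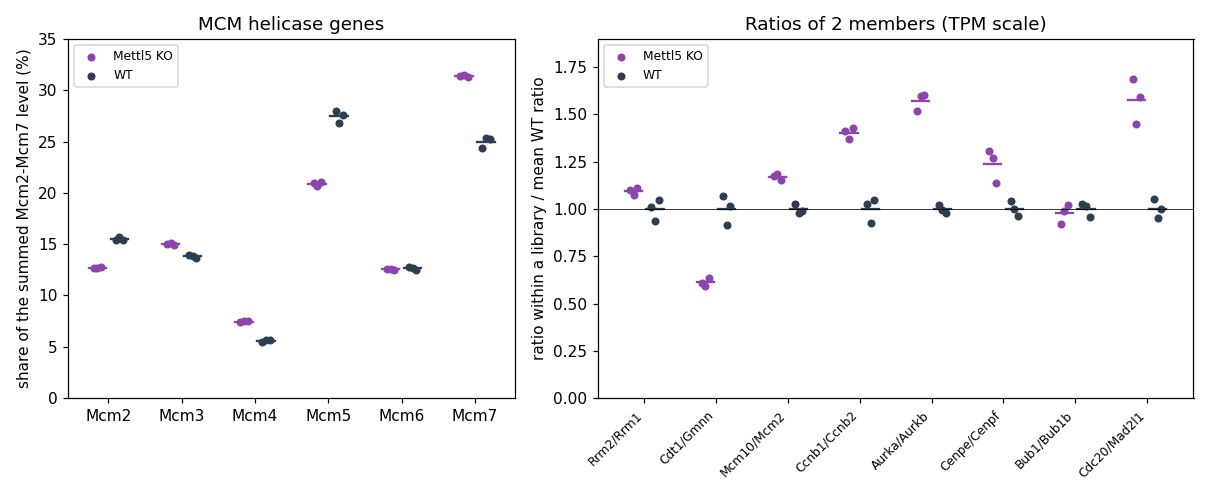
Left, share of each gene in the summed level of Mcm2 to Mcm7 within a library (%); right, ratio of 2 genes within a library divided by the mean WT ratio, both on the TPM scale. Points are the 3 libraries of Mettl5 KO and of WT and bars are group means; the Mcm7 share was 31.4% in KO and 24.97% in WT, the Cdt1/Gmnn ratio lay below 1 in every KO library, and the Bub1/Bub1b groups overlapped.

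Fold changes differed by chromosome. Among genes with at least 20 scaled reads, the median log2 fold change was -0.28 on chromosome 6 (868 genes), -0.36 on chromosome 8 (954 genes) and -0.38 on chromosome 11 (1408 genes), while every other chromosome had a median from 0.04 to 0.24. Of the 48 genes, 11 lie on these 3 chromosomes, and they include Gins2, Mcm5, Cdt1, Mcm2, Top2a and Aurkb. The 6 S phase genes there had 5 lower and 1 higher (median -0.48), and the 20 elsewhere had 9 higher and 10 lower (median -0.07). Of the mitosis genes, 4 of the 5 there fell (median -0.29), and the 17 elsewhere had 5 higher and 8 lower (median -0.02). Over all genes with at least 20 scaled reads, the upper quartile was 0.194 on chromosome 6, -0.005 on 8 and -0.001 on 11. Most genes there were thus lower. The share of all genes called on these chromosomes was not taken, so the counts there are not a result about these genes. Genomic copy number was not measured in these RNA libraries, and its part was not tested.

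Each fold change was therefore also taken relative to its own chromosome, by subtracting the median of that chromosome. On that scale 31.7% of all genes were called higher and 29.1% lower. The S phase genes then had 8 higher and 15 lower (median -0.17), and the mitosis genes 5 higher and 12 lower (median -0.14). Gins2 (-0.27), Top2a (-0.24), Mcm5 (-0.23), Mcm2 (-0.18), Cdt1 (-0.13) and Aurkb (-0.09) remained lower at a reduced size, and none of the 48 changed by 1.5-fold. Cdc6, whose value is uncertain as given above, stood at 0.53, the highest of the 48. Orc6, Birc5 and Foxm1 changed sides and were called higher, at 0.19, 0.25 and 0.23. Genes on other chromosomes shifted a little downward, so that Ccnb2 (-0.48), Rfc1 (-0.47) and Cenpf (-0.47) became the lowest.

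**Figure D4:**
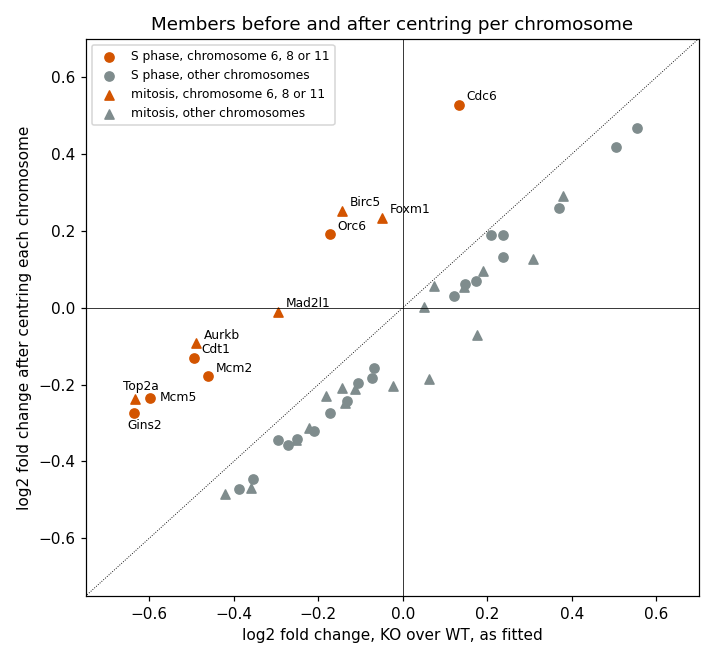
Log2 fold change of the 48 genes, KO over WT, as fitted (x axis) and after the median of each gene's chromosome was subtracted (y axis); circles are S phase and triangles mitosis genes, and the dotted line marks equal values. The 11 genes on chromosomes 6, 8 and 11 (orange) lie above the line, and Orc6, Birc5 and Foxm1 pass from below 0 to above it.

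Replication and mitosis genes outside the 48 also fell in more cases than they rose. Of 53 other DNA replication genes, 13 rose, 26 fell and 14 were not called, with a median log2 fold change of -0.09. Of all tested genes, 33.6% rose and 28.9% fell. At equal totals 4 rose and 36 fell, against 26.1% higher and 37.8% lower of all genes. Those of the 53 that lie on chromosomes 6, 8 and 11, where medians over all genes were below 0, all fell as deposited. With chromosomes centred 7 rose and 28 fell, against 31.7% higher and 29.1% lower of all genes. Pold2, a partner subunit of Pold1, fell by 1.12 (89.9 ± 3.05 in KO and 207 ± 4.1 in WT libraries). The histone chaperone Asf1b fell by 1.06 (35.1 ± 0.197 in KO and 76.6 ± 1.77 in WT libraries). Rpa3, of the single-strand binding complex, fell by 0.73. These lie on chromosomes 11, 8 and 6 and were also lower with chromosomes centred, at -0.72, -0.69 and -0.45. Pole3, an accessory subunit of the leading-strand polymerase, rose by 0.63, Orc5, of the origin recognition complex, by 0.50, and Rnaseh2b, of the enzyme that removes ribonucleotides from DNA, by 0.38. All 3 increases were also called at equal totals.

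Of 64 other mitosis genes, 18 rose, 28 fell and 18 were not called, with a median of -0.02 (-0.025 before rounding). At equal totals 10 rose and 44 fell, and with chromosomes centred 15 rose and 33 fell. The shares of all genes in each of these fits are given above for the replication genes. Cenpk, of the inner kinetochore, fell by 0.97 (22.5 ± 1.2 in KO and 46.0 ± 1.72 in WT libraries), and kept that size with chromosomes centred (-0.99). Cenpk shares 233 bases with Ppwd1, listed at a mean of 27.5. Hmmr, a spindle protein on chromosome 11, fell by 0.81, and Ncapd2, a condensin subunit on chromosome 6, by 0.66. Pttg1, securin, which guards the cohesin-cleaving enzyme until CDC20 acts, rose by 0.67 (96.8 ± 3.28 in KO and 64.4 ± 2.68 in WT libraries) although it lies on chromosome 11. Cks1b, a partner of cyclin-dependent kinases, rose by 0.65 (357 ± 3.86 in KO and 239 ± 7.97 in WT libraries), and Kif23, a motor of the central spindle, by 0.49. All 3 were also called higher at equal totals.

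Of 18 genes for E2F factors, their retinoblastoma-family partners and the MuvB complex, 8 rose, 7 fell and 3 were not called, with a median of 0.04. As 33.6% of all tested genes rose and 28.9% fell, these counts by themselves say little about the list. E2f2, an activator related to E2f1, fell by 1.31 (3.73 ± 0.323 in KO and 9.55 ± 0.154 in WT libraries). Rbl2, which encodes the retinoblastoma relative p130, fell by 0.72 at a low level (2.33 ± 0.413 in KO and 4.0 ± 0.183 in WT libraries). Mybl2, which encodes B-MYB, fell by 0.50 (166 ± 0.707 in KO and 247 ± 2.89 in WT libraries), and a pseudogene that matches it, Gm3320, was listed at a mean of 27.5. Rb1, the retinoblastoma gene, rose by 1.33 (17.8 ± 0.875 in KO and 7.57 ± 0.435 in WT libraries). The repressors E2f6 and E2f8 rose by 0.75 and 0.53. These 6 directions were also called at equal totals and with each chromosome centred. Parts of Rb1, Rbl2 and E2f8 transcripts match overlapping genes, and so their values are uncertain.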

How the data were processed

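PolyA RNA of 3 Mettl5 KO and 3 WT libraries of J1 cells was selected on oligo dT beads, fragmented to 100 nt and made into stranded libraries from 0.1 µg, per the labels' protocols. The submitters' processing notes name kallisto, sleuth and mm10. The sources used here give no version, annotation or strand setting for them. The gene table holds 2 signal columns per gene and library, scaled reads and a TPM column, named per the file headers. Neither signal column deposited by the authors is a count: scaled reads are not whole, and the TPM column has a different total in each genotype. Depth was estimated from the regular steps of low values, of which 29.7% to 32.8% lay within 0.02 of a whole multiple, so it is approximate.

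Groups and replicate numbers came from the sample titles. GENCODE M21 named 23829 of 24191 identifiers. Genes averaging 1 scaled read or more over the 6 libraries (24183) entered limma 3.58.1, run in R 4.3.3 on log2(scaled reads + 1) with a trend in intensity, Benjamini-Hochberg adjustment and a threshold of 0.05. Fold changes on this scale understate the change of low genes. The signal columns are scaled differently, so fold changes computed from the levels printed are lower by a small amount and can differ in sign near 0. The script was tested on made-up data before use. Alternatives were equal library totals, the TPM column, pseudocounts of 0.1 and 10, no filter, a mean of at least 20, chromosome centring (at least 50 genes), a replicate block, a test against 1.2-fold, and leaving out each library. Ratios used exact permutation tests (SciPy 1.17.1). Shared sequence was searched in transcripts with BLAST+ 2.17.0 (at least 200 bases at 95% identity), which found matches for 13 of the 48 genes. Tables were handled in Python 3.11.15 with pandas 2.3.3 and numpy 2.4.6, and plots drawn with matplotlib 3.10.9.

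The 48 genes and the other lists were chosen with earlier results of these data known, so no test was made over a list. Values in every library are given for the 5 S phase and 5 mitosis genes with the largest called changes and for Mcm2, Gmnn, Pcna, E2f1, Mki67, Cdk1, Ccnb1, Plk1, Foxm1 and Mettl5. From each pathway list the 3 largest called changes in each direction are named. Same-numbered KO and WT libraries did not deviate together (correlations of -0.009, 0.038 and 0.044), so numbers were not used to pair them.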

Additional observations from a re-analysis of the deposited data

How the results depend on the processing

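Pseudocounts and filters on low values changed none of the 48 calls. Equal totals left 3 S phase and 2 mitosis genes higher, with medians of -0.275 and -0.281, and put Mcm7 (-0.010), Cdc6 (-0.024), Pcna (-0.035), Ccnb1 (-0.082), Cdc25c (-0.10), Plk1 (-0.11) and Aurka (-0.012) below 0. The other replication genes then had 4 higher, and the other mitosis genes 10 higher and 44 lower. The TPM column gave medians of -0.184 for S phase and -0.173 for mitosis, with Plk1 at -0.023. Chromosome centring gave an S phase median of -0.167 and 7 higher other replication genes, and turned Orc6 (0.19), Birc5 (0.25), Foxm1 (0.23), Cdc25c (-0.19) and Kif20a (-0.07). Centred ratios, an alternative chosen after seeing the data, turned Mcm10 over Mcm2 to 0.893. The cause of the shift by chromosome was not tested.

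A test against a 1.2-fold change, which asks more of each gene by construction, left 3 S phase genes higher and 5 lower, 1 mitosis gene higher and 3 lower, and 5270 higher and 4409 lower genes overall. Leaving out each library gave 13 to 14 lower and 10 higher S phase genes and 12 lower and 5 higher mitosis genes. Cenpe ranged from -0.067 to 0.023. In all, 46 of the 48 genes kept their call in each of those 6 fits and 12 kept it in every alternative. With the replicate block, 10 S phase genes were higher and 15 lower, and 6 mitosis genes were higher and 12 lower. Ccnb1 became called (0.07, limma adjusted p 0.0227), and the block changed no other call among the 48. The table used here holds no counts, so no counting interval is given.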
